A study of Mus musculus with 6 samples.

Results

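MITF, TFE3, TFEB and TFEC are the 4 members of the MITF family of basic helix-loop-helix leucine zipper transcription factors, and SOX10, PAX3, LEF1 and TFAP2A are factors that act with MITF in the pigment cell lineage. The genes were chosen by symbol from a table of B16F10 cells, in which all 8 were found among 27179 genes. The list was drawn up after a value of Mitf in the authors' own comparison of the treatments had been seen. That comparison is not used here, and the levels below are descriptions without a test.

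B16F10 is an established mouse melanoma cell line, labelled as wild type and as derived from skin. RNA was sequenced from 3 cultures kept for 6 h with 0.01% ozonated olive oil (OZO) and from 3 cultures kept for 6 h with 0.01% olive oil (OLO), the unozonated precursor. All 6 cultures therefore received an oil, and no culture without oil was analysed here. The level of a gene is the authors' mean of log2 CPM, the reads of a gene scaled to a common library size, over all 6 libraries, turned back into CPM, which makes it a geometric mean over both treatments. Single libraries were not analysed here, and no level can be assigned to OZO or OLO and the levels have no spread between cultures. For most genes with a low mean, a higher level in a few libraries cannot be told apart from a low level in all, and the exceptions are genes without reads or whose mean allows only 1 set of read counts. A typical library held 19641945 reads, a geometric mean after scaling that was recovered from the genes without reads, and 1 CPM stood for 19.6 reads. Of the 27179 genes, 21154 had at least 1 read in a library.

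In melanocytes, MITF drives the genes of pigment synthesis, survival and the cell cycle, and binds E-box sequences as a dimer. TFEB and TFE3 bind similar sequences in front of genes for lysosomes and autophagy, and are held in the cytoplasm by phosphorylation when nutrients are plentiful. SOX10, PAX3, CREB and LEF1 with β-catenin are known to act on the promoter from which the melanocyte form of MITF is transcribed.

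That promoter is shown first because several of the factors are known to act on it. The Mitf gene (ENSMUSG00000035158) runs from 97807052 to 98021349 on the plus strand of chromosome 6 (GRCm38, which mm10 also names). RefSeq promoters on GRCm38.p6 gave 3 start regions for Mitf, of which the third by position is that of the melanocyte form. The 250 bases before this start, chr6:97991533-97991782 on the plus strand, are printed 5′ to 3′. From left to right, capitals mark the LEF/TCF motif CTTTGAT, the cAMP response element TGACGTCA bound by CREB, and the homeodomain palindrome TAATTA, a type of sequence that PAX3 can bind.
Mitf: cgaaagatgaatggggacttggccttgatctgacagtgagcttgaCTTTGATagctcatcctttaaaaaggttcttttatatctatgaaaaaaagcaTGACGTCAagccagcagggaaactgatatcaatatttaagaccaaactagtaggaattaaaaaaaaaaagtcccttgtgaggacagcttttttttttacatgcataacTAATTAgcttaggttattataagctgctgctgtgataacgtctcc

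Counted back from the start, CTTTGAT began at -205, TGACGTCA at -153 and TAATTA at -45. Read on both strands, these motifs were held by 3.21%, 1.55% and 4.84% of the 32851 promoter regions of the same length. Neither of the other two Mitf regions held any of the 3. The SOX motif ACAAAG, the LEF/TCF motif CTTTGAA and the AP-2 motif GCCNNNGGC were not found in the 3 Mitf windows, which says only that these letters are absent there. These matches are descriptions of sequence and not measured binding. Reads were counted per gene, so the share of Mitf RNA that began at each start was not measured here.

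A sequence that MITF is known to bind, the M-box core TCATGTG, is shown in front of the pigment genes that held it. Capitals mark the core, as TCATGTG or on the other strand as CACATGA, with up to 20 bases on each side and all bases before the start. The genes are Tyr (tyrosinase) at chr7:87493513-87493554, minus strand, Tyrp1 at chr4:80834146-80834192, plus strand, and Dct at chr14:118052452-118052496 and chr14:118052371-118052417, minus strand. Slc24a5 is at chr2:125068094-125068126, Mc1r at chr8:123407010-123407056 and Trpm1 at chr7:64153673-64153719, all on the plus strand.
Tyr: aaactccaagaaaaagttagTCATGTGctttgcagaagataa
Tyrp1: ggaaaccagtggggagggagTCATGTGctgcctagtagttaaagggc
Dct, far: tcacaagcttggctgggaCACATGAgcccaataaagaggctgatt
Dct, near: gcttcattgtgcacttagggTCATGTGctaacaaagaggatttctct
Slc24a5: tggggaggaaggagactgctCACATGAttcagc
Mc1r: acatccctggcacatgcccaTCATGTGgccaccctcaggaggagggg
Trpm1: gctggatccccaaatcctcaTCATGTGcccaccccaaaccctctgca

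Of the 19 pigment cell target genes, 15 had a promoter region in the table, and 6 of the 15 held TCATGTG within 250 bases before a start. Among all 27025 genes with a region, 3.72% did. The target genes were listed as known targets of MITF, which binds this sequence, so list and motif are not independent. The hexamer CATGTG, which TCATGTG contains, was found for 7 of the 15 genes, the additional gene being Oca2, against 13.8% of all genes. Among the 6 members with a region, no window held TCATGTG or CATGTG.

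The symmetrical E-box CACGTG, which TFEB and TFE3 are known to bind, was found for 10 of the 20 lysosome target genes with a region, against 6.86% of all genes. It was also found for 4 of the 15 pigment cell targets, Met, Mlph, Rab27a and Trpm1, and TCATGTG was found for 2 of the 20 lysosome targets, Clcn7 and Gla. Lamp1, a membrane protein of lysosomes, and Mcoln1, a calcium channel of lysosomes, are shown as examples with several copies, of which Lamp1 held 4 and Mcoln1 2, as did Ctsd and Gla. The Lamp1 stretch is chr8:13159080-13159160 and the Mcoln1 stretch chr8:3500428-3500499, both on the plus strand, with each CACGTG in capitals.
Lamp1: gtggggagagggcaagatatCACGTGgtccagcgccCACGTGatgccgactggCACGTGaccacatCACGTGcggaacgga
Mcoln1: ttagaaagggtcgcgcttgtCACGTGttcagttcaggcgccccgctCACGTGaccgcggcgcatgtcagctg

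The longer CLEAR palindrome, CACGTG with GT before and AC after it, was found for 0 of the 20 genes and for 0.27% of all genes. Among the members, CACGTG was found for Lef1, in the last of its 4 regions. Genes with several starts had more sequence searched, and no test was made of these shares. Both target lists hold genes already known as targets of factors that bind these motifs, so list and motif are not independent. A share above that of all genes can follow from this choice of genes and is not a result about these cells.

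**Figure D1:**
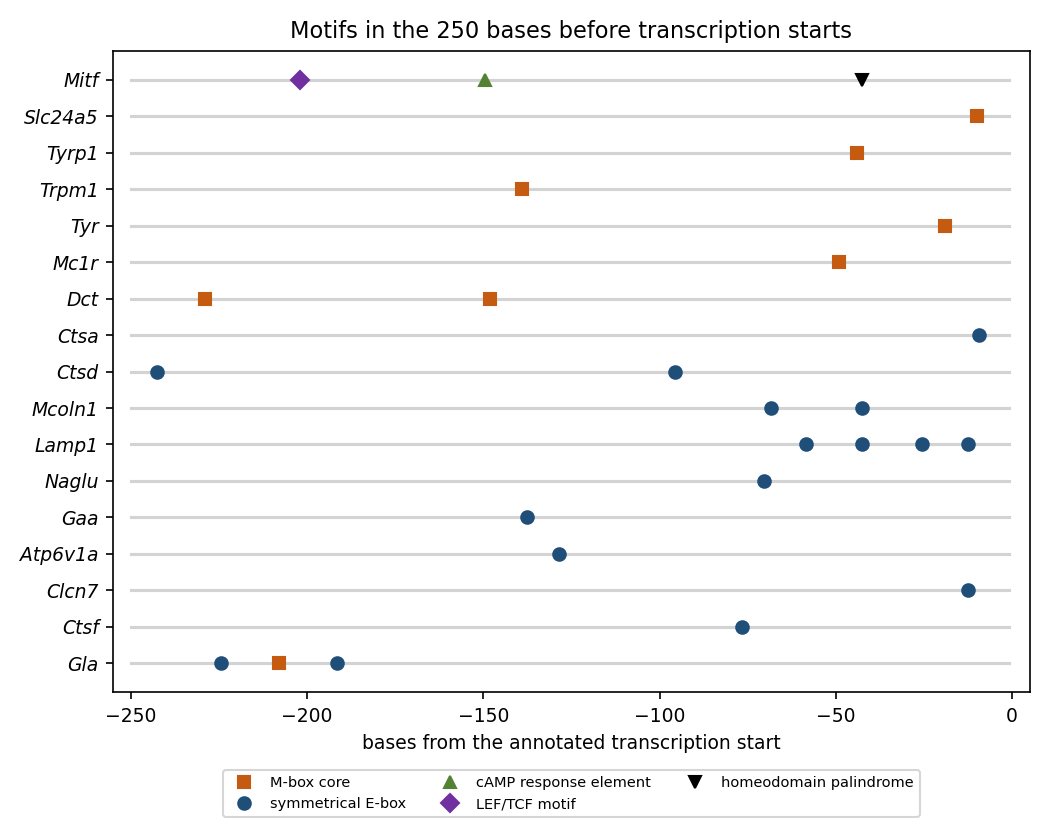
Motif positions in the 250 bases before annotated transcription starts, with the distance from the start in bases on the horizontal axis and 1 gene per line. Mitf is drawn at the start of its melanocyte form with its LEF/TCF motif, cAMP response element and homeodomain palindrome, followed by the 6 pigment genes with an M-box core (TCATGTG) and the 10 lysosome genes with a symmetrical E-box (CACGTG), of which Lamp1 has 4.

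Within the MITF family, Mitf itself was the highest in B16F10 cells. Its mean level was 288 CPM, or 59.0 CPM per kb of its longest annotated transcript, above 95.0% of the genes with reads per kb. Tfe3 stood at 53.0 CPM and 8.38 CPM per kb, and Tfeb at 5.29 CPM and 2.26 CPM per kb. Levels of different genes are compared per kb, since longer transcripts give more reads. On that scale Mitf was 7.04 times as high as Tfe3 and 26.1 times as high as Tfeb, and Tfe3 was 3.71 times as high as Tfeb. Mitf made up 84.7% of the summed level of the 4 family genes per kb, Tfe3 12.0% and Tfeb 3.24%. With all exons of a gene joined in place of the longest transcript, Mitf was 49.8 times and Tfe3 6.13 times as high as Tfeb, because Tfeb has 5.67 kb of joined exons and 2.34 kb in its longest transcript, and the share of Tfeb was 1.76%.

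Tfec, a family member best known from macrophages, had the lowest mean of the 8 genes. It had a mean of 0.0732 CPM and 0.0216 CPM per kb, and made up 0.0311% of the family level. With joined exons, the Tfec level was 0.0131 CPM per kb and its share 0.0246%. With the 0.5 reads that voom adds taken off, its level was 0.0141 CPM per kb. For genes with few reads, the mean fixes the product over the 6 libraries of the read count plus 0.5, divided by 0.5, and for Tfec this product was 567. No set of 6 libraries that all had a read gives this product, so Tfec had reads in at most 5 of the 6 libraries. If 5 had reads, these were 1 read in each of 4 libraries and 3 in another, for a total of 7, the lowest that the product allows, and the highest is 283 reads in 1 library. Which libraries had the reads is not known.

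Tfe3 lies on the X chromosome from 7762560 to 7775202 on the plus strand, Tfeb on chromosome 17 from 47737030 to 47792419 on the plus strand, and Tfec on chromosome 6 from 16833373 to 16898441 on the minus strand. No other annotated gene shared exon bases with Mitf, Tfe3, Tfeb or Tfec.

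The lineage factors Pax3 and Sox10 were the next highest after Mitf. Pax3, a paired box factor of the neural crest and of melanoblasts, had 153 CPM and 39.5 CPM per kb. Sox10, the SOX factor that marks neural crest cells and melanocytes, had 109 CPM and 39.0 CPM per kb. Mitf was 1.49 times as high as Pax3 and 1.51 times as high as Sox10 per kb. The order of Pax3 and Sox10 depended on the length used, since their ratio was 1.01 with the longest transcript and 0.694 with joined exons. Without a spread between cultures, neighbours in this order cannot be told apart or held to differ. Pax3 is on chromosome 1 from 78101267 to 78197134 and Sox10 on chromosome 15 from 79154908 to 79165240, both on the minus strand.

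Tfap2a, which encodes AP-2α, a factor that shares pigment gene promoters with MITF, had 37.6 CPM and 10.8 CPM per kb. This was 1.29 times the level of Tfe3 per kb, whereas without division by length Tfap2a was at 0.709 times Tfe3. Tfap2a is on chromosome 13 from 40715302 to 40738376 on the minus strand. Antisense genes share some of its exon bases, at most 7.75% for Gm26688, and the strand setting of the counting is not given in the sources used here, so reads of these partners could not be told apart.

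Lef1, which encodes the HMG box partner of β-catenin, had a geometric mean near the floor. This mean was 0.163 CPM and 0.0447 CPM per kb, and Tfeb was 50.6 times as high per kb. The product recovered for Lef1 was 70125, which allows from 20 to 35062 reads over the 6 libraries together, in 1 to 6 libraries. If all 6 libraries had reads, the counts were 1, 2, 2, 2, 5 and 8. Lef1 is on chromosome 3 from 131110471 to 131224356 on the plus strand, and 13.8% of its joined exons are shared with the antisense gene Gm43352.

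**Figure D2:**
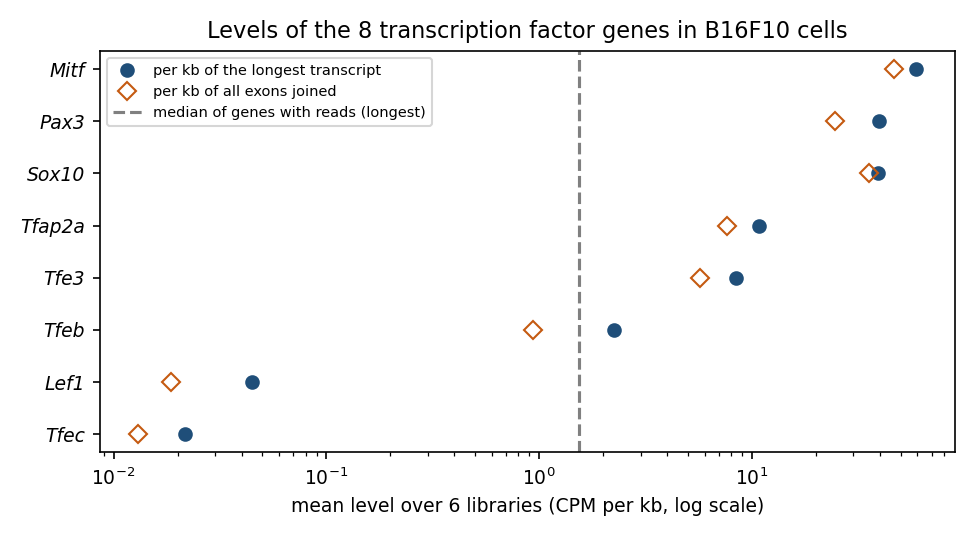
Mean level of each of the 8 genes over the 6 libraries in CPM per kb on a log scale, per kb of the longest transcript (filled circles) and of all exons joined (open diamonds), with the median of all genes with reads, 1.54 CPM per kb, as a dashed line. Mitf, Pax3 and Sox10 lie between 39.0 and 59.0 per kb of the longest transcript, and Lef1 and Tfec lie below 0.05; no error bars are drawn because only 1 mean per gene was used.

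Before division by length, 6 of the 8 genes were above the median of the 21154 genes with reads. Mitf was above 97.2% of these genes, Pax3 above 92.9%, Sox10 above 89.3%, Tfe3 above 79.4%, Tfap2a above 74.5% and Tfeb above 53.8%. Lef1 was above 29.1% and Tfec above 20.6%. At least 1 CPM was reached by 6 of the 8 genes, as by 56.2% of the genes with reads.

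Genes that MITF is known to regulate in pigment cells spanned a wide range of levels in these cells. The 19 genes had a median of 49.8 CPM per kb, compared with 1.54 for all genes with reads, and 17 of the 19 had at least 1 CPM. Tyrp1 (2144 CPM per kb) and Dct (2039), both enzymes of melanin synthesis, and Gpnmb (1826), a glycoprotein of melanosomes and lysosomes, were the 3 highest. With joined exons, Pmel (1338 CPM per kb) stood above Dct (1196) and Gpnmb (1037). Tyr, the rate-limiting enzyme of melanin synthesis, had 49.8 CPM per kb and so was far below Tyrp1 and Dct. Ednrb, the endothelin receptor B, had the lowest geometric mean at 0.0563 CPM per kb, and Oca2, a melanosomal channel, was also under 1 CPM with 0.924 CPM. The mean of Ednrb allows from 28 to 280780 reads in 1 to 6 libraries. Kit (5.41 CPM per kb), Bcl2 (4.43) and Trpm1 (3.62) were also below 9.74 CPM per kb, the median of all genes with at least 1 CPM. Among the 6 genes with TCATGTG, levels ran from 3.62 CPM per kb for Trpm1 to 2144 for Tyrp1.

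The lysosome genes known as targets of TFEB and TFE3 were all above 1 CPM, 23 of 23, with a median of 37.1 CPM per kb. Ctsd (686 CPM per kb), which encodes the protease cathepsin D, Sqstm1 (532), the autophagy receptor p62, and Lamp1 (449.9) led the list. Ctsf, cathepsin F, was the lowest at 1.26 CPM per kb. Mcoln1 and Lamp1, both with several CACGTG copies, stood at 5.55 and 449.9 CPM per kb.

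Genes that control where TFEB and TFE3 reside in the cell, in either direction, were all detected, with all 28 at 1 CPM or more and a median of 32.7 CPM per kb. Ppp3ca, Ppp3cb and Ppp3r1, subunits of the phosphatase calcineurin, which sends the factors to the nucleus, had 11.5, 36.6 and 62.2 CPM per kb. Among the 14-3-3 proteins, which bind the phosphorylated factors, Ywhae (515 CPM per kb), Ywhaq (192) and Ywhab (151) were the 3 highest of the list. Rragc and Rragd, GTPases that bring the factors to mTORC1 at the lysosome, had 73.3 and 16.1 CPM per kb. Flcn, folliculin, which activates them, had 27.3 CPM per kb. Rragb was the lowest with 1.86 CPM per kb.

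The geometric mean of Lef1, 0.0447 CPM per kb or 0.0186 with joined exons, was below that of most genes of its partners. Of the 12 partners and regulators, 11 had at least 1 CPM and the median was 3.52 CPM per kb. Ctnnb1, β-catenin, was the highest with 262 CPM per kb, ahead of Apc (26.2), part of the complex that degrades it, and Pygo2 (13.7), a coactivator. Axin2, a gene widely used as a readout of Wnt signalling, had 2.13 CPM per kb. Tle2, a corepressor, had the lowest geometric mean at 0.0379 CPM per kb, which allows from 22 to 38812 reads in 1 to 6 libraries. Among the relatives of LEF1 that bind the same DNA sequence, Tcf7l2 had 6.64 and Tcf7l1 4.86 CPM per kb, and Tcf7 had 0.359.

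The 19 relatives of the factors were unevenly expressed, with 10 at 1 CPM or more. Max (52.5 CPM per kb), the partner of MYC, Sox11 (34.4) and Usf2 (11.8) were the 3 highest. In the AP-2 family Tfap2a stood alone, since Tfap2d had no reads, and Tfap2b, Tfap2c and Tfap2e were at or under 0.0480 CPM each, compared with 37.6 CPM for Tfap2a. In the PAX family, Pax7 had no reads and Pax6 had a geometric mean of 0.133 CPM, compared with 153 CPM for Pax3. The mean of Pax6 allows from 14 to 10312 reads in 1 to 6 libraries. Among the SOX genes, Sox10 was closest in level to Sox11, while Sox9 and Sox5 had 3.86 and 3.94 CPM per kb, and Sox8, the close relative of Sox10, had a geometric mean of 0.0442, which allows from 14 to 9922 reads in 1 to 6 libraries.

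Other factors that bear on Mitf or on the state of melanoma cells ranged from 69.5 CPM per kb for Tfdp1 to no reads. Tfdp1, a partner of E2F factors, Yy1 (27.1) and Creb1 (22.7), which binds the cAMP response element shown above, were the 3 highest of 21 genes. Zeb2, a zinc finger factor of melanocytes, had 9.42 CPM per kb, and Zeb1, its relative in invasive cells, had a geometric mean of 0.118, which allows 82 reads or more in 1 to 6 libraries. Twist1, Foxd3 and Msx2 had no reads in any library. The list had a median of 2.14 CPM per kb, and 14 of the 21 genes had at least 1 CPM.

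**Figure D3:**
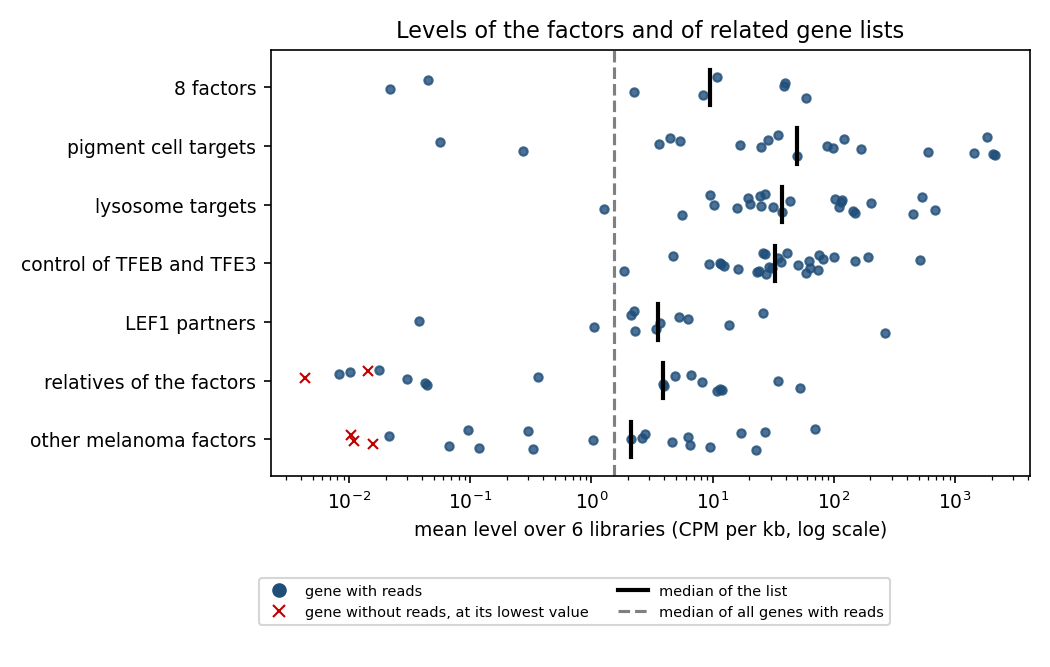
Mean level of each gene in CPM per kb of its longest transcript on a log scale, for the 8 factors and 6 related lists, with 1 point per gene, a bar at the median of each list, crosses for genes without reads at their lowest value and a dashed line at 1.54, the median of all genes with reads. Pigment cell and lysosome targets have medians of 49.8 and 37.1, while relatives and other factors spread down to genes without reads.

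The label of melanoma cells was compared with cell type markers. All 10 melanocyte lineage markers had at least 1 CPM, from 16.8 CPM per kb for Mc1r to 2144 for Tyrp1, and Mitf and Sox10 are themselves on that list. Most markers of other cells had low geometric means, with those of the 6 keratinocyte genes summing to 0.204 CPM, the 6 leukocyte genes to 0.832 CPM, the 5 endothelial genes to 1.84 CPM and the 7 fibroblast genes to 7.29 CPM. These sums include the 0.5 reads that voom adds, through which even a gene without reads stands at 0.0255 CPM. At least 1 CPM was reached by 3 fibroblast genes, Pdgfra (3.28 CPM), Col1a1 (1.70) and Col1a2 (1.15), by 1 endothelial gene, Pecam1 (1.21), and by 0 keratinocyte and 0 leukocyte genes. Krt5 and Dsg3 had no reads. Of 4 Schwann cell genes, 3 had at least 1 CPM, with S100b at 28.6, Mbp at 19.0 and Pmp22 at 12.7 CPM per kb, whereas Ngfr, a receptor of neural crest and immature Schwann cells, had 0.197 CPM per kb. Schwann cells and melanocytes both descend from the neural crest and share SOX10. In bulk RNA, fewer cells with a transcript and less RNA per cell cannot be told apart.

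**Figure D4:**
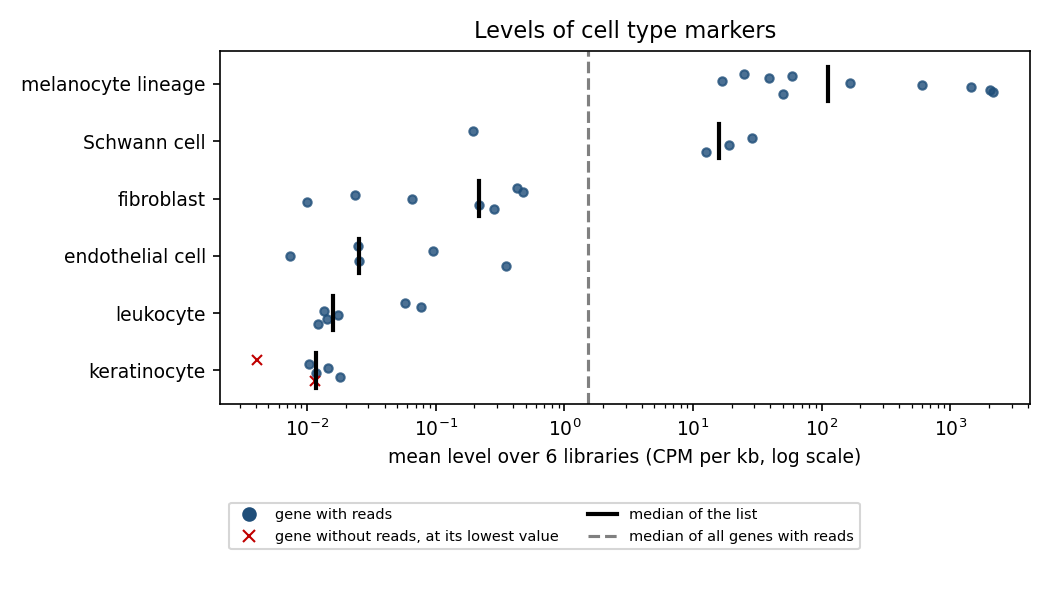
Mean level of cell type markers in CPM per kb of the longest transcript on a log scale, with 1 point per gene, a bar at the median of each list, crosses for genes without reads and a dashed line at the median of all genes with reads. The 10 melanocyte lineage markers all lie above the dashed line, and every keratinocyte, leukocyte, endothelial and fibroblast marker lies below it.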

How the data were processed

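RNA of 3 OLO and 3 OZO cultures was sequenced. According to the methods and the submitters' processing notes, the authors aligned reads to mm10 with HISAT2 (2.1.0), counted them per gene with featureCounts (2.1.1) and used limma-voom (limma 3.58.1). The deposited mean log2 CPM over the 6 libraries, to which voom adds 0.5 reads, is the column used. The other deposited columns hold the authors' own comparison (fold change, statistic, p-values, log odds) and were not used, so the planned test of OZO against OLO was not run.

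Levels were back-transformed and divided by the longest transcript of GENCODE M21 (GRCm38), found for 25294 of 27179 genes. Genes without reads share the lowest mean, which gives the library size. Products of read counts were whole and odd, within 0.001, for all 8941 genes with a product under 1e9. From simulated counts, 100% of 7832 products were recovered. The simulated means were built with the same formula, so this checks only the arithmetic. Motifs were searched in RefSeq promoters, which matched 6 of 8 members. Members and lists were chosen with earlier results of these data known. Named from each list were the 3 highest, the lowest and genes without reads, and other genes named were chosen after their values were seen. Pmel, entered under a second name, was counted once, and some genes of the lists are not reported here. Python 3.11.15, numpy 2.4.6, pandas 2.3.3 and matplotlib 3.10.9 were used.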

Additional observations from a re-analysis of the deposited data

How the results depend on the processing

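No paired analysis was possible because the column used is 1 mean over all libraries. For the same reason edgeR and DESeq2, a replicate block, other count filters and leaving out each culture were not run. Of the 8 genes, 6 kept their place in the order with joined exons (Pax3 and Sox10 changed places), 6 did without division by length (Tfap2a and Tfe3 changed places), and 8 did with the 0.5 reads taken off. The number of genes above the median level was 6 among genes with reads, among all genes and among genes with a symbol. All 6 related lists had a median per kb above that of all genes with reads, but with genes of at least 1 CPM only, 3 did, because the median of all such genes was 9.74 CPM per kb. Having 1 geometric mean per gene limits what is known of low genes such as Lef1 and Tfec, whose means allow totals from 20 to 35062 and from 7 to 283 reads.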
